A study of Mus musculus with 9 samples.

Results

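The 10 genes described here belong to 2 mouse families of protease inhibitors: Serpina1a, Serpina1b, Serpina1c, Serpina1d and Serpina1e, copies of alpha-1-antitrypsin, and Serpina3c, Serpina3g, Serpina3k, Serpina3m and Serpina3n, related to alpha-1-antichymotrypsin. They were taken by gene name from a table of 61473 rows, each name stood on 1 row, and all 10 were among the 12860 features tested. The table gives the abundance of each gene in whole liver from NSG mice, an immunodeficient strain that lacks mature T, B and NK cells, listed as wild type in genotype. The mice received, over 5 weeks and through the tail vein, either phosphate-buffered saline (PBS, 3 libraries) or extracellular vesicles (EV). The vesicles came from MCF-10A, a human line of breast epithelium that forms no tumours (3 libraries), or from MDA-MB-231, a triple-negative breast cancer line of human origin (3 libraries). Vesicle dose, number of injections, sex and age are not given in the sources used here, and nothing states that each library came from a separate mouse. The title names cholesterol balance and a microRNA that cancer cells secrete as the study's subject; the serpins were measured along with all other liver genes.

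Serpins inhibit proteases by offering a flexible stretch of their chain, the reactive centre loop, as bait: the protease cuts the loop and is trapped in a covalent complex, which the liver then clears. Alpha-1-antitrypsin is made mainly by hepatocytes, is among the most abundant proteins of plasma and protects tissue from the elastase of neutrophils. Humans carry a single gene for each of these inhibitors, whereas in mice both were duplicated, and the duplicates differ most in the loop, which sets the protease that is caught. Several Serpina3 copies belong to the acute phase response, the change in liver secretion that inflammation brings.

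The copies were set out first by position and sequence, since nearly identical transcripts can exchange reads during counting. In GENCODE M21 on the build GRCm38 (the authors used GRCm39) the cluster lies on chromosome 12. Serpina1a (103853589 to 103863562), Serpina1c (103894926 to 103904887), Serpina1d (103763594 to 103773592) and Serpina1e (103946931 to 103958975) are on the minus strand. Serpina1b, at 103728156 to 103830373 on the same strand, has a gene model that spans Serpina1d. Among the Serpina3 members, Serpina3c (104146382 to 104153870) is on the minus strand, and Serpina3g (104236245 to 104241939) and Serpina3n (104406729 to 104414329) are on the plus strand. Serpina3k (104338486 to 104346144) and Serpina3m (104338486 to 104394257), also on the plus strand, share a first base, and the model of Serpina3m runs across Serpina3k and the pseudogene Serpina3l-ps (104358003 to 104363534).

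The coding sequences of the 5 Serpina1 copies were between 96.3% and 98.5% identical over 1242 aligned bases, and Serpina1a and Serpina1c were the closest pair. The stretch of the last exon that encodes the reactive centre loop, 81 bases in each copy, is shown because it is where the copies part. Capitals mark the 18 positions at which the 5 copies are not all alike, and the sequences are read 5′ to 3′ on the minus strand of GRCm38, at chr12:103853750-103853830, chr12:103728317-103728397, chr12:103895087-103895167, chr12:103763755-103763835 and chr12:103947093-103947173 in the order printed.
Serpina1a: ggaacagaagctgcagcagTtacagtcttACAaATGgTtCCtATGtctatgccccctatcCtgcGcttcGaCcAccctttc
Serpina1b: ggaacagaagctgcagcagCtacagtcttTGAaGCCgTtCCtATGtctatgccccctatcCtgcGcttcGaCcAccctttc
Serpina1c: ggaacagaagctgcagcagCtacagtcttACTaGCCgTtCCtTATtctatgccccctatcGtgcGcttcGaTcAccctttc
Serpina1d: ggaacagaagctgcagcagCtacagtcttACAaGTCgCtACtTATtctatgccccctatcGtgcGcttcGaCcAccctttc
Serpina1e: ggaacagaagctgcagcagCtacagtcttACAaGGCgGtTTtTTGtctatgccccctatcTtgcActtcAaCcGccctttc
Within these 81 bases, pairs of copies differed at 5 to 12 positions. Serpina1c and Serpina1d differed at 5, Serpina1a and Serpina1b at 6, and Serpina1e differed from every other copy at 10 or more. Serpina1a and Serpina1c, the closest pair over the whole coding sequence, differed at 10 positions of the loop.

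The corresponding stretches of the Serpina3 copies diverge further. Here capitals mark the part between the shared hinge codons and the last 15 bases, on the plus strand at chr12:104241072-104241161, chr12:104345269-104345352, chr12:104393769-104393858 and chr12:104413448-104413537 in the order printed. The search that found them had no match in Serpina3c.
Serpina3g: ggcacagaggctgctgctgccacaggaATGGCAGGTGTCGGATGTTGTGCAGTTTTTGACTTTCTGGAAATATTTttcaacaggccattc
Serpina3k: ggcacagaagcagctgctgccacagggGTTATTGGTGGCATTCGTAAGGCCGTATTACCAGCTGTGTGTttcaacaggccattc
Serpina3m: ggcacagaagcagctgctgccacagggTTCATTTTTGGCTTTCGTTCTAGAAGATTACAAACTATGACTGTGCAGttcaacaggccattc
Serpina3n: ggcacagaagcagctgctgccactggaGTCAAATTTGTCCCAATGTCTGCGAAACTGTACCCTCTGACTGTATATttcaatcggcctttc
Serpina3k and Serpina3m were 92.5% identical over their coding sequences, yet the stretch is 84 bases long in Serpina3k and 90 in Serpina3m. Serpina3k and Serpina3n were 83.7% identical, and a Serpina1 copy and a Serpina3 copy were between 64.4% and 71.8% identical. The upper end is Serpina1a with Serpina3g, over 728 aligned bases only. The coding model of Serpina3g used here holds 248 codons, against 417 or 418 in the other Serpina3 members. Without Serpina3g the upper end was 67.6% (Serpina1a with Serpina3k).

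How far a read could tell the copies apart was described by the share of windows of a member's transcript that occur, base for base, in a transcript of another gene. With windows of 50 bases this share was 67.4% for Serpina1a, 47.1% for Serpina1b, 74.2% for Serpina1c, 50.9% for Serpina1d and 37.9% for Serpina1e. The Serpina3 members shared less, from 4.3% for Serpina3c and 6.9% for Serpina3n to 14.0% for Serpina3k and 19.1% for Serpina3m. With windows of 100 bases Serpina1a (49.9%) and Serpina1c (58.5%) still shared most, chiefly with each other, and Serpina3k shared 4.9%, all of it with Serpina3m. So the split of abundance between Serpina1a and Serpina1c is the least certain of the family, while Serpina3k and Serpina3n rest mostly on sequence of their own. The strain of these mice is not that of the reference genome, and the number of Serpina1 copies is known to differ between mouse strains; the copies that NSG mice carry were not analysed here.

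**Figure D1:**
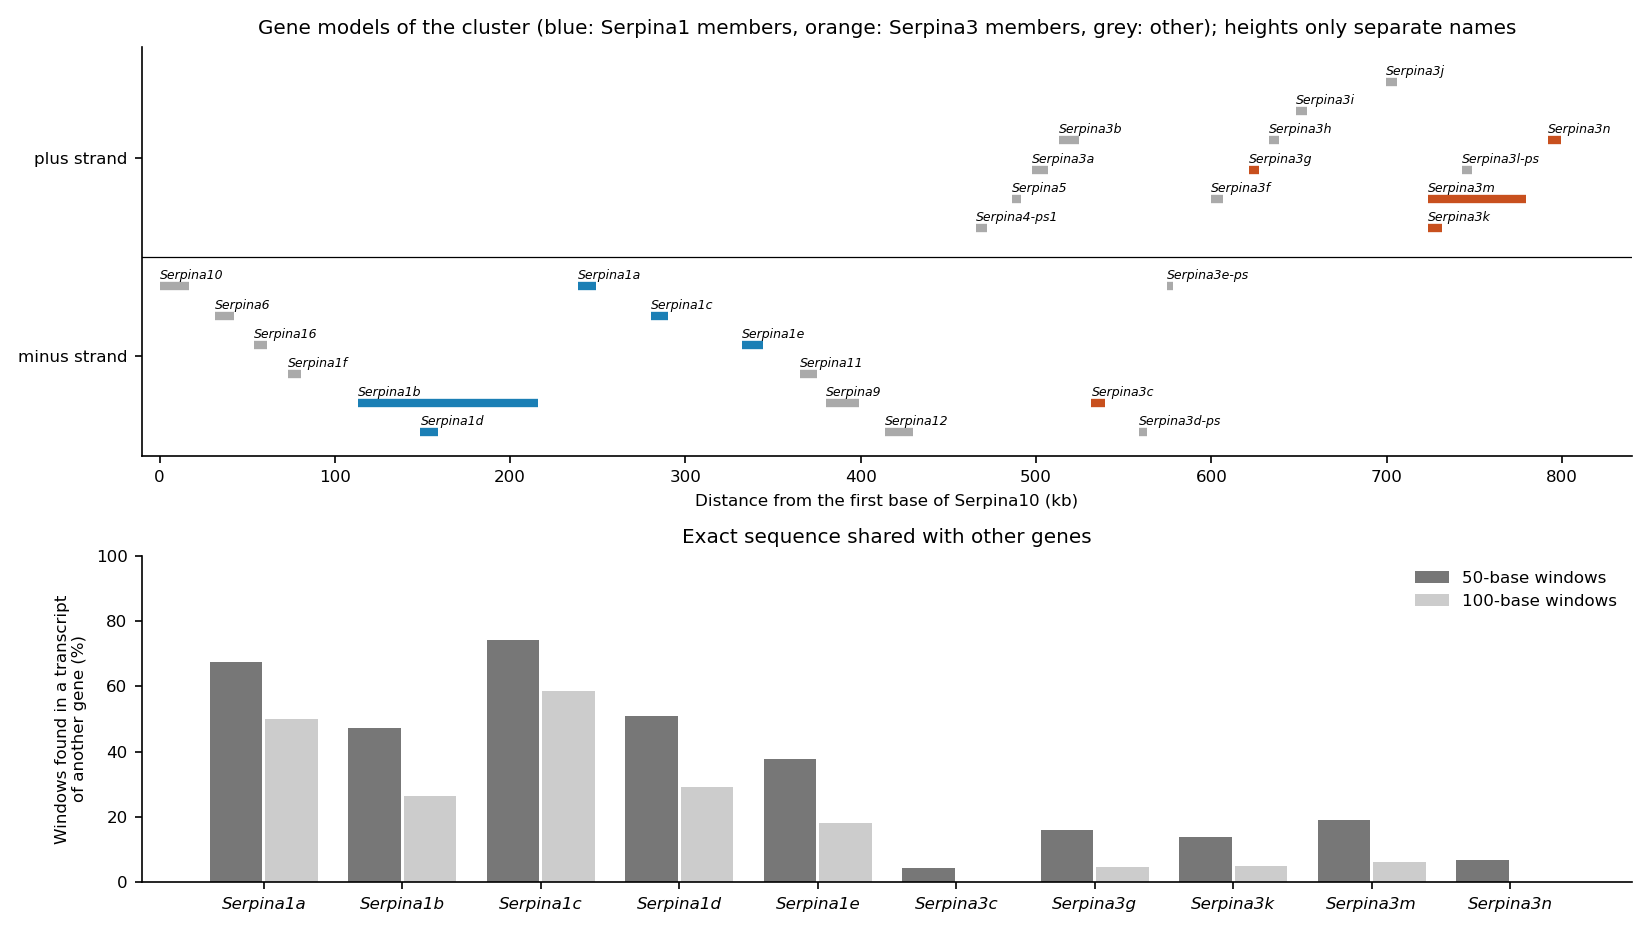
Top: gene models of the cluster by distance in kb from the first base of Serpina10, split by strand, with Serpina1 members in blue, Serpina3 members in orange and other genes in grey; heights only separate the names. Bottom: percent of 50-base (dark) and 100-base (light) transcript windows of each member that occur in another gene, highest for Serpina1c (74.2% and 58.5%) and Serpina1a (67.4% and 49.9%).

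Abundance is given in TPM (transcript abundance scaled to the library total and already divided by transcript length), so levels of different genes can be set side by side; read depth is unknown from this unit. Hepatocyte markers summed to between 38943 and 104455 TPM, and the 10 markers of T, B and NK cells to between 0.21 and 1.63 TPM. In 3 libraries other genes stood apart. In PBS 1 and MDA-MB-231 EV 3, Xist was at 320.2 and 273 TPM against 7.11 to 74.9 TPM elsewhere, the protease inhibitor gene Mug2 at 750.1 and 789 TPM against at most 32.1 TPM, and Serpina4-ps1, a pseudogene inside this cluster, at 1624 and 2278 TPM against 17.8 to 277 TPM. In MCF-10A EV 1 the acute phase gene Saa1 was at 28586 TPM, against 21.03 to 1211 TPM elsewhere, and 12 neutrophil markers summed to 5736 TPM, against 26.8 to 267 TPM. In PBS 1, mitochondrially encoded genes also took 27.1% of the TPM of Ensembl features, against 5.02% to 12.4% elsewhere. PBS 1 was the lowest PBS library for every member except Serpina3k. For Serpina3k it was the highest (4365 TPM, against 4274 and 3717 TPM in PBS 2 and 3). The part of the mitochondrial share in these values was not tested. Total TPM was 979351, 946777 and 934986 in MCF-10A EV 1 to 3 and 1000000 in each of the 6 other libraries. The sources used here do not say whether the former were quantified apart, and such a step cannot be told apart from the group.

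Together the 10 members held 1.03%, 1.56% and 1.89% of the TPM of Ensembl features in PBS 1 to 3, 1.89%, 2.49% and 2.65% in MCF-10A EV 1 to 3, and 3.23%, 2.69% and 1.33% in MDA-MB-231 EV 1 to 3. By mean over the 9 libraries the order was Serpina1b (9466 TPM), Serpina3k (3901 TPM), Serpina1a (2914 TPM), Serpina1c (2641 TPM), Serpina1e (517 TPM), Serpina3n (383 TPM), Serpina3m (283 TPM), Serpina1d (44.7 TPM), Serpina3c (27.3 TPM) and Serpina3g (8.39 TPM). Most neighbours in this order traded places between libraries: Serpina1b exceeded Serpina3k in 7 of 9, Serpina1a exceeded Serpina1c in 5 of 9 and Serpina1d exceeded Serpina3c in 5 of 9. Serpina1c exceeded Serpina1e in 9 of 9 libraries, with ranges that did not overlap, and Serpina3m exceeded Serpina1d in 9 of 9, with ranges that did. Serpina1b ranked between 8 and 42 among all Ensembl features of a library and Serpina3k between 20 and 137.

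Serpina1b, the most abundant copy, was at 2199.6, 4818 and 5961 TPM in PBS 1 to 3, at 7899.7, 16343 and 18256 TPM in MCF-10A EV 1 to 3, and at 16046, 10768 and 2900.3 TPM in MDA-MB-231 EV 1 to 3. All 3 MCF-10A EV libraries lay above all 3 PBS libraries, while MDA-MB-231 EV 3 lay inside the PBS range and the other 2 libraries of its group above it. Group means were 4326 ± 1928, 14166 ± 5511 and 9905 ± 6615 TPM (SD, n = 3 each), and the log2 difference on log2(TPM + 1) between MCF-10A EV and PBS was 1.74 ± 0.69 (SE). It was 1.31 without PBS 1 and 2.12 without MCF-10A EV 1.

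Serpina1c stood the other way. Its level was 1819.6, 2913 and 4409 TPM in PBS 1 to 3 and 3681, 4369 and 2043 TPM in MDA-MB-231 EV 1 to 3, but 1399, 1594 and 1544 TPM in MCF-10A EV 1 to 3. The MCF-10A EV group (1513 ± 101 TPM, SD, n = 3) lay below every library of both other groups. Log2 differences were -0.92 ± 0.47 (SE) for MCF-10A EV against PBS and 1.08 ± 0.47 for MDA-MB-231 EV over MCF-10A EV.

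Serpina1e, the copy with the most divergent loop, was at 254, 409 and 544 TPM in PBS, 646, 1048 and 967 TPM in MCF-10A EV, and 142, 385 and 255 TPM in MDA-MB-231 EV, replicates 1 to 3 in each. The MCF-10A EV libraries lay above all others, and PBS and MDA-MB-231 EV overlapped. Its log2 differences were 1.18 ± 0.49 (SE) for MCF-10A EV against PBS and -1.85 ± 0.49 for MDA-MB-231 EV over MCF-10A EV.

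Serpina1a was at 1140.1, 2449 and 3419 TPM in PBS, 3449.7, 3019 and 2518 TPM in MCF-10A EV and 4565, 4496 and 1173 TPM in MDA-MB-231 EV. Serpina1d, a minor copy, was at 18.5, 43.5 and 51.6 TPM in PBS, 73.8, 24.8 and 26.99 TPM in MCF-10A EV and 77.6, 66.6 and 18.9 TPM in MDA-MB-231 EV. For both genes all 3 groups overlapped, and the lowest values came from PBS 1 and MDA-MB-231 EV 3, the pair with high Xist.

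**Figure D2:**
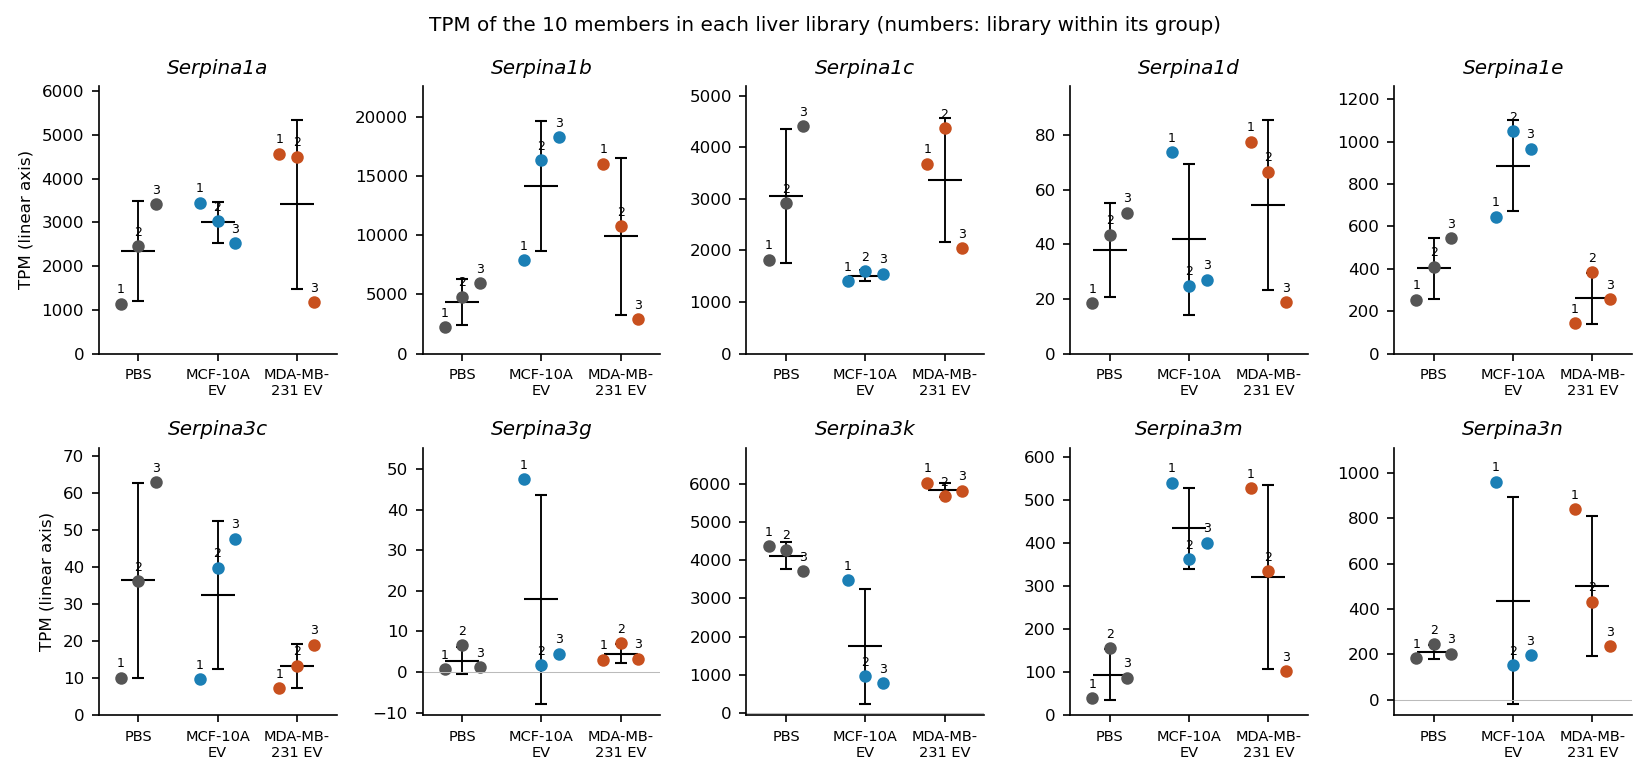
TPM of each member on a linear axis, 1 panel per gene, by group (SD bars that reach below 0 are drawn as computed); points are libraries with their number, and the horizontal mark and bar are the group mean and SD (n = 3). Serpina1b and Serpina1e in MCF-10A EV sit above all PBS points, Serpina1c in MCF-10A EV sits below them, and for Serpina3k the 3 groups do not overlap.

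Single copies were then set against their sum, which leaves aside how TPM was split between them. Summed Serpina1 TPM was 5431, 10632 and 14384 in PBS 1 to 3, 13468, 22029 and 23312 in MCF-10A EV 1 to 3, and 24512, 20084 and 6391 in MDA-MB-231 EV 1 to 3. The sum overlapped between groups in all 3 comparisons, unlike Serpina1b, Serpina1c and Serpina1e singly. Its log2 difference was 1.02 ± 0.60 (SE) for MCF-10A EV against PBS, 0.64 ± 0.60 for MDA-MB-231 EV against PBS and -0.38 ± 0.60 between the vesicle groups. Without PBS 1 and MDA-MB-231 EV 3, the libraries with the lowest sums, these became 0.62 ± 0.41, 0.84 ± 0.45 and 0.22 ± 0.41, the last with its sign turned. The difference for MDA-MB-231 EV against PBS turned most on single libraries: it was 0.24 without PBS 1 and 1.24 without MDA-MB-231 EV 3. The pair that share most sequence, Serpina1a plus Serpina1c, summed to 2960, 5362 and 7828 TPM in PBS, 4849, 4613 and 4062 TPM in MCF-10A EV and 8246, 8865 and 3216 TPM in MDA-MB-231 EV. This pair sum overlapped in all 3 comparisons, whereas Serpina1c alone overlapped only between MDA-MB-231 EV and PBS.

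The makeup of the sum was then described by the share of each copy. Serpina1b made up 40.5%, 45.3% and 41.4% of the Serpina1 sum in PBS, 58.7%, 74.2% and 78.3% in MCF-10A EV and 65.5%, 53.6% and 45.4% in MDA-MB-231 EV. Every vesicle library was thus above every PBS library, though MDA-MB-231 EV 3 (45.38%) cleared PBS 2 (45.31%) by very little. The Serpina1c share was 33.5%, 27.4% and 30.6% in PBS, 10.4%, 7.24% and 6.62% in MCF-10A EV and 15.0%, 21.8% and 32.0% in MDA-MB-231 EV, lowest in the 3 MCF-10A EV libraries.

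Ratios of copies showed the same makeup library by library. Serpina1c per Serpina1b was 0.827, 0.605 and 0.740 in PBS, 0.177, 0.0975 and 0.0846 in MCF-10A EV and 0.229, 0.406 and 0.705 in MDA-MB-231 EV. Serpina1c per Serpina1a, the pair hardest to tell apart, was 1.60, 1.19 and 1.29 in PBS, 0.406, 0.528 and 0.613 in MCF-10A EV and 0.807, 0.972 and 1.74 in MDA-MB-231 EV. In both ratios MCF-10A EV lay below the other groups, and MDA-MB-231 EV 3 was the library of its group nearest to PBS. Serpina1e made up 0.580%, 1.92% and 3.99% of the sum in MDA-MB-231 EV, below the 4.15% to 4.80% of MCF-10A EV. Ratios of nearly identical copies rest on the authors' assignment of reads, whose part in these differences was not tested.

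**Figure D3:**
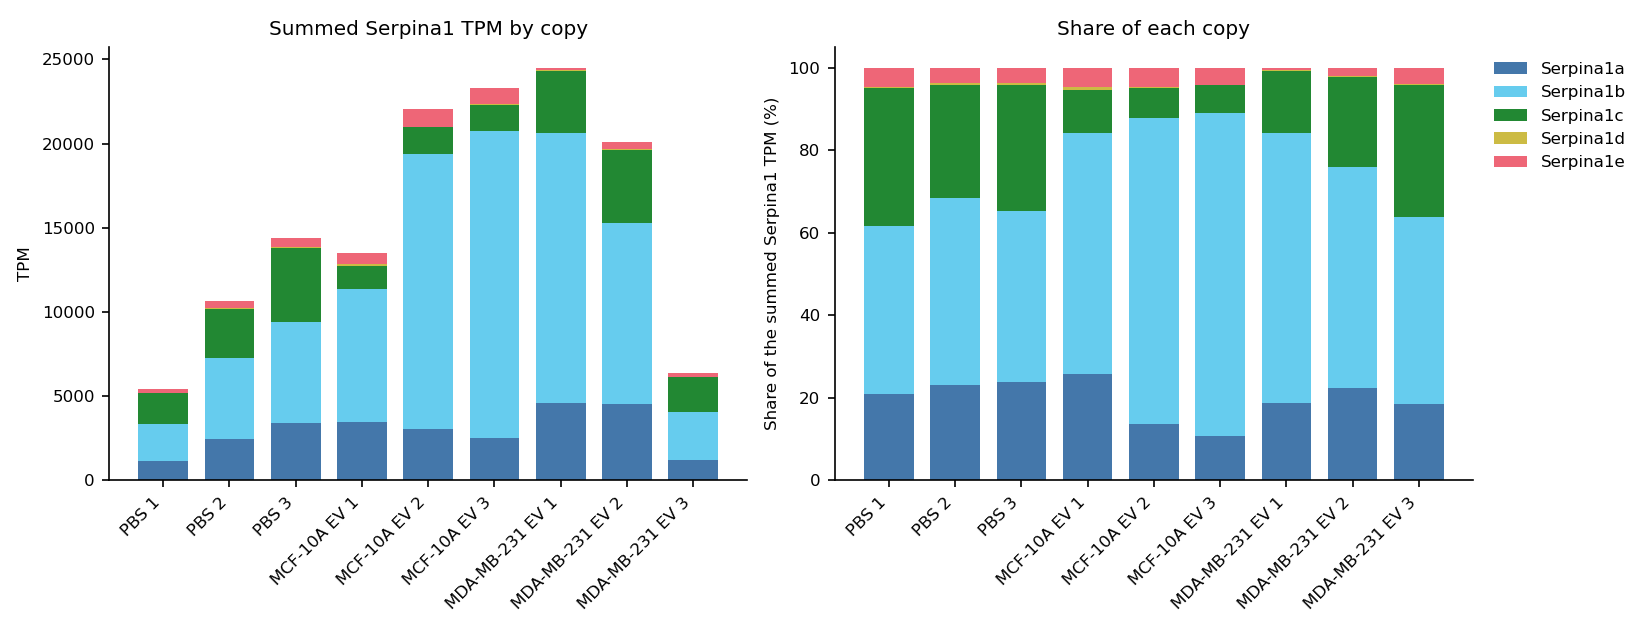
Left: stacked TPM of the 5 Serpina1 copies in each library. Right: the same as percent of the sum; the light blue Serpina1b segment runs from 40.5% (PBS 1) to 78.3% (MCF-10A EV 3) and the green Serpina1c segment from 33.5% to 6.62% in the same libraries.

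Serpina3k, a kallikrein-binding relative of antichymotrypsin, was the main Serpina3 copy of these livers. It was at 4365, 4274 and 3717 TPM in PBS 1 to 3, 3483, 970.4 and 781 TPM in MCF-10A EV 1 to 3, and 6029, 5670.5 and 5815 TPM in MDA-MB-231 EV 1 to 3. The 3 groups did not overlap in any comparison: MDA-MB-231 EV was highest (5838 ± 180 TPM, SD, n = 3), PBS intermediate (4119 ± 351 TPM) and MCF-10A EV lowest (1745 ± 1508 TPM). MCF-10A EV 1 lay close under the PBS range and the other 2 libraries of its group far under it. The log2 difference was 0.51 ± 0.55 (SE) for MDA-MB-231 EV against PBS, -1.57 ± 0.55 for MCF-10A EV against PBS and 2.08 ± 0.55 between the vesicle groups. Without the pair with high Xist these were 0.55 ± 0.67, -1.53 ± 0.61 and 2.08 ± 0.61, close to the values with them. Without MCF-10A EV 1 the difference between the vesicle groups was 2.74, at an adjusted p of 0.0365 (limma, Benjamini-Hochberg over all features), and so passed the threshold of 0.05 that it missed with all 9 libraries. That fit called 23 of 12714 features between the vesicle groups (0.181%).

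Serpina3m, which overlaps Serpina3k in the annotation, was at 38.6, 155.7 and 86.3 TPM in PBS, 539, 361 and 400.0 TPM in MCF-10A EV and 527, 334 and 102 TPM in MDA-MB-231 EV. All MCF-10A EV libraries exceeded all PBS libraries, and the MDA-MB-231 EV libraries spread from inside the PBS range to the top of the MCF-10A EV range. The log2 difference from PBS was 2.39 ± 0.66 (SE) in MCF-10A EV, the largest of any member in that comparison, and 1.69 ± 0.66 in MDA-MB-231 EV. Without PBS 1, its lowest library, these were 1.87 and 1.17, and without MDA-MB-231 EV 3 the latter was 2.37. Serpina3k per Serpina3m was 113, 27.5 and 43.1 in PBS, 6.46, 2.69 and 1.95 in MCF-10A EV and 11.4, 17.0 and 57.3 in MDA-MB-231 EV. The pseudogene inside the Serpina3m model, Serpina3l-ps, was listed at 9.81, 136 and 45.6 TPM in PBS, 2118, 44.9 and 41.3 TPM in MCF-10A EV and 2181, 541 and 89.6 TPM in MDA-MB-231 EV, highest in the libraries with the highest Serpina3m of each vesicle group. Whether reads of one were counted for the other was not tested.

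Serpina3n, an acute phase inhibitor of cathepsin G, elastase and granzyme B, was at 183, 245 and 203 TPM in PBS, 961, 152 and 196 TPM in MCF-10A EV and 839, 432 and 235 TPM in MDA-MB-231 EV. The groups overlapped, and 1 library of each vesicle group, number 1 in both, stood far above the PBS range. The log2 difference from PBS was 0.55 ± 0.70 (SE) in MCF-10A EV and 1.07 ± 0.70 in MDA-MB-231 EV, and without MCF-10A EV 1 the former turned to -0.27. Of 23 acute phase genes that inflammation raises, MCF-10A EV 1 was the highest of the 9 libraries in 20, and MDA-MB-231 EV 1 was second in 8 and above all PBS libraries in 11. Libraries with less Serpina3n also exceeded all PBS libraries, MDA-MB-231 EV 2 in 17 genes and MCF-10A EV 3 in 13. MCF-10A EV 3 was second in 9, with its Serpina3n (196 TPM) inside the PBS range. MCF-10A EV 2 and MDA-MB-231 EV 3 exceeded all PBS libraries in 2 genes each. MDA-MB-231 EV 1 differed from gene to gene: Saa1 was at 92.2 TPM there, inside the PBS range, while the fibrinogen gene Fga was at 3889 TPM. Fga was at 5243 TPM in MCF-10A EV 1 and at 95.8 to 525 TPM in PBS.

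Serpina3g, an intracellular inhibitor of cysteine cathepsins known from blood cells and interferon responses, was low in all libraries but 1. It was at 0.68, 6.58 and 1.13 TPM in PBS, 47.5, 1.62 and 4.49 TPM in MCF-10A EV and 3.06, 7.15 and 3.29 TPM in MDA-MB-231 EV. The log2 difference between MCF-10A EV and PBS, 1.56 ± 0.96 (SE), was 0.34 without MCF-10A EV 1, the library with the high neutrophil markers. Serpina3c, another kallikrein-binding copy, was at 10.1, 36.1 and 63.0 TPM in PBS, 9.76, 39.9 and 47.7 TPM in MCF-10A EV and 7.23, 13.4 and 19.0 TPM in MDA-MB-231 EV. Its log2 difference of -1.16 ± 0.74 (SE) between MDA-MB-231 EV and PBS was -2.16 ± 0.72 without PBS 1 and MDA-MB-231 EV 3. With all 9 libraries the groups overlapped in every comparison. With those 2 left out, MDA-MB-231 EV (7.23 and 13.4 TPM) lay below PBS (36.1 and 63.0 TPM), too few libraries to judge a gap. MCF-10A EV still overlapped both.

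Summed over the 5 copies, Serpina3 TPM was 4598, 4717 and 4070.3 in PBS, 5041, 1525 and 1429 in MCF-10A EV and 7406, 6457 and 6174 in MDA-MB-231 EV. MDA-MB-231 EV lay above both other groups, which overlapped each other. The log2 difference was 0.58 ± 0.51 (SE) for MDA-MB-231 EV against PBS, -1.002 ± 0.51 for MCF-10A EV against PBS and 1.58 ± 0.51 between the vesicle groups. The sum is mostly Serpina3k, whose share was 94.9%, 90.6% and 91.3% in PBS, 69.1%, 63.6% and 54.6% in MCF-10A EV and 81.4%, 87.8% and 94.2% in MDA-MB-231 EV. Without Serpina3k the other 4 summed to 232, 443 and 353 TPM in PBS, 1558, 554 and 649 TPM in MCF-10A EV and 1377, 787 and 359 TPM in MDA-MB-231 EV. On this remainder MCF-10A EV lay above PBS, opposite to Serpina3k itself. The single value of the family thus joined copies that stood in opposite directions.

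In the test across all features no member passed an adjusted p of 0.05 (limma on log2(TPM + 1), Benjamini-Hochberg per comparison). For MDA-MB-231 EV against PBS 0 of 10 members were called, where 0% of all tested features were. The groups of 1 member, Serpina3k, did not overlap, against 6.03% of all features. At an unadjusted p under 0.05 stood 1 member, Serpina3m, and 199 of all features (1.55%). The median log2 difference of the members was 0.48, beside 0.21 over all features, and 8 of 10 were above 0.

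For MCF-10A EV against PBS 0 of 10 members were called, against 0.194% of all features (25). The groups of 5 members did not overlap, Serpina1b, Serpina1e and Serpina3m higher and Serpina1c and Serpina3k lower, against 7.69% of all features. At an unadjusted p under 0.05 stood 4 members, Serpina1b, Serpina1e, Serpina3k and Serpina3m, and 411 of all features (3.20%). Adjusted p-values by limma with Benjamini-Hochberg were 0.554 for Serpina3m and 0.927 for Serpina3k. The median of the members was 0.52, beside 0.07 over all features.

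Between the vesicle groups, MDA-MB-231 EV set against the other, 0 of 10 members were called, against 0.218% of all features (28). With the replicate number as a block over all 9 libraries, PBS included, 15 features (0.117%) and 0 of 10 members were called. The groups of 3 members did not overlap, Serpina1c and Serpina3k higher and Serpina1e lower, against 6.53% of all features. The same 3 were at an unadjusted p under 0.05 in limma's test, as were 492 of all features (3.83%). Serpina1e and Serpina3k had an adjusted p of 0.532 by limma with Benjamini-Hochberg. The member median was -0.37, beside 0.17 over all features. The 3 comparisons share libraries, so a gene that is unusual in MCF-10A EV enters 2 of them.

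**Figure D4:**
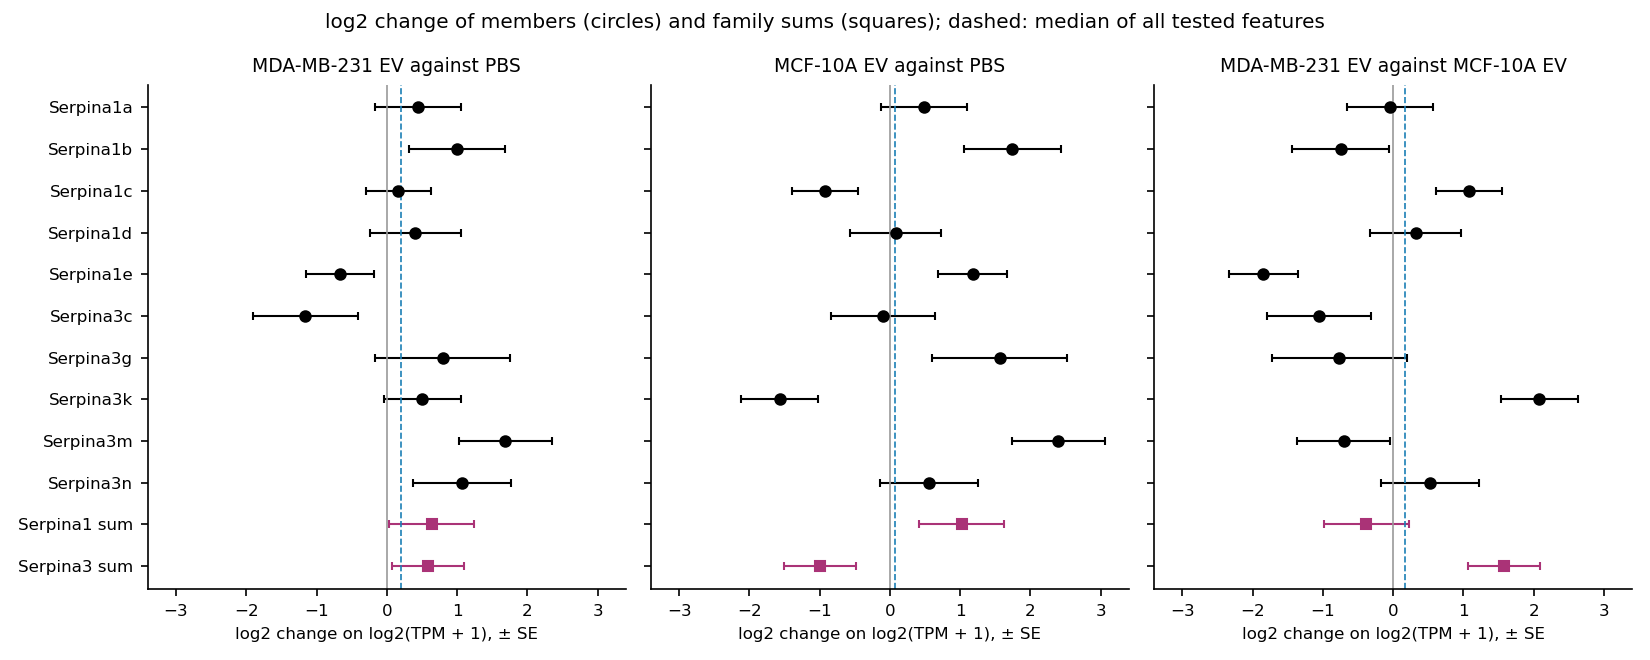
Log2 difference on log2(TPM + 1) with its SE for each member (circles) and for the family sums (squares) in the 3 comparisons; the dashed line is the median of all 12860 tested features (0.21, 0.07 and 0.17). Serpina3m lies farthest right in MCF-10A EV against PBS (2.39) and Serpina3k farthest right between the vesicle groups (2.08), with Serpina1e farthest left (-1.85).

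Limma can also weight each library by how closely it follows its group. With such weights, which were lowest in MDA-MB-231 EV 3 (0.258), MCF-10A EV 1 (0.323) and PBS 1 (0.382) and highest in PBS 3 (8.24, or 83.1% of the weight of its group), 4 members were called in MCF-10A EV against PBS. They were Serpina1b (log2 difference 1.59, adjusted p = 0.0126), Serpina1c (-1.38, 0.0083), Serpina3k (-2.07, 0.00083) and Serpina3m (2.10, 0.0018). This weighted fit called 548 of all features in that comparison, where the unweighted one called 25. Between the vesicle groups it called Serpina3k (2.69, adjusted p = 0.0464) and 46 of all features (0.358%).

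Genes around the members were described by lists of the proteins that act with them, and of their 96 tested genes 0 were called by limma in any comparison. At an unadjusted p under 0.05 stood 1 for MDA-MB-231 EV against PBS, 2 for MCF-10A EV against PBS and 1 between the vesicle groups. Of the other clade A serpins of the cluster, 10 of 15 were tested, and their medians were 0.32 (MDA-MB-231 EV against PBS), -0.29 (MCF-10A EV against PBS) and 0.60 (between the vesicle groups, MDA-MB-231 EV over MCF-10A EV). Serpina6, the corticosteroid-binding globulin, was at 176, 282 and 492 TPM in PBS, 124, 707 and 596 TPM in MCF-10A EV and 777, 559.9 and 151 TPM in MDA-MB-231 EV. Serpina11, between the Serpina1 and Serpina3 genes, was at 276 to 369 TPM in PBS, 213 to 310.3 TPM in MCF-10A EV and 369.5 to 398 TPM in MDA-MB-231 EV, above both other groups but clear of PBS 1 (368.7 TPM) by very little.

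Liver serpins from other chromosomes (12 of 13 tested) had medians of 0.51, 0.39 and 0.16 in the same order. Serpinc1, antithrombin, was at 736, 2209 and 2411 TPM in PBS, 2371 to 2509.99 TPM in MCF-10A EV and 4444, 3289.9 and 1157 TPM in MDA-MB-231 EV, so that PBS 1 and MDA-MB-231 EV 3 were lowest, as for the Serpina1 sum. Other protease inhibitors (15 of 18 tested), such as Ambp and Itih4, had medians of 0.42, 0.26 and 0.31. The inhibitor medians were 0.42, -0.18 and 0.71 without MCF-10A EV 1. Above 0 for MCF-10A EV against PBS were then 6 of 15 inhibitors, and 9 of 15 with that library. A list of proteases drawn up as serpin targets (13 of 21 tested) also holds the metalloproteinases Mmp9 and Mmp12, which are not such targets. Its medians were 0.53, 1.03 and -0.25, with 11 of 13 above 0 in each vesicle group against PBS. Without MCF-10A EV 1 only 10 of these proteases passed the filter on low values, with medians of 0.65, 0.29 and 0.09. Among the proteases, the neutrophil genes Elane and Ctsg were at 95.8 and 53.0 TPM in MCF-10A EV 1.

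Regulators of the members (22 of 22 tested) had medians of 0.48, 0.13 and 0.37. The regulator medians were 0.48, -0.07 and 0.51 without MCF-10A EV 1. Above 0 for MCF-10A EV against PBS were then 8 of 22 regulators, and 14 of 22 with that library. Hnf4a, a hepatocyte transcription factor, was at 52.5 to 80.5 TPM in PBS, 55.7 to 92.0 TPM in MCF-10A EV and 64.0 to 139 TPM in MDA-MB-231 EV. Cebpb, a factor of the acute phase response, was at 22.0 TPM in MDA-MB-231 EV 1 and between 96.7 and 194 TPM in the other 8 libraries. Genes of secretion and quality control in the endoplasmic reticulum (18 of 19 tested), through which antitrypsin leaves the cell, had medians of 0.29, 0.32 and 0.01. Receptors that take up serpin-protease complexes (6 of 8 tested), Lrp1 among them, had medians of 0.48, 0.25 and 0.21.

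Acute phase genes that inflammation raises (23 of 23 tested) had medians of 0.64, 1.31 and -0.71, with 22 of 23 above 0 in MCF-10A EV against PBS. Without MCF-10A EV 1 the medians were 0.64, 0.53 and -0.13, and 16 of 23 were above 0 in MCF-10A EV against PBS. Of these, Hp was at 21166 TPM in MCF-10A EV 1 and Saa2 at 29951 TPM, against at most 11397 and 956 TPM in the other libraries. Genes that fall in inflammation (9 of 10 tested) had medians of 0.48, 0.21 and 0.11, and interferon targets (16 tested) -0.03, 0.22 and -0.30. The symbol Tf, the listed gene left out of the former, was not matched by name, so its level was not judged. Secreted hepatocyte proteins (13 of 14 tested, again without Tf) had medians of 0.01, 0.12 and -0.02, and the 10 hepatocyte markers 0.17, 0.02 and 0.11. The hepatocyte marker medians were 0.17, -0.12 and 0.27 without MCF-10A EV 1. Of the 88 tested genes in these and the cell type lists that follow, limma called 0 in any comparison, and 1, 9 and 5 stood at an unadjusted p under 0.05.

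Markers of other cell types moved with some libraries. Neutrophil markers (12 of 12 tested) had medians of 0.54, 2.62 and -2.27. Without MCF-10A EV 1 only 8 passed the filter on low values, with medians of 0.63, 0.75 and -0.04. Kupffer cell markers (10 of 10 tested) had medians of 0.72, 0.59 and 0.18. Without MCF-10A EV 1 these were 0.72, -0.16 and 0.94, with 2 of 10 above 0 in MCF-10A EV against PBS. The markers summed to 2135 TPM in MCF-10A EV 1 against 314 to 866 TPM elsewhere, while the Kupffer cell gene Clec4f was at 0.61 TPM there and at 96.5 to 243 TPM elsewhere. Markers of fat and pancreas summed to 472 TPM in PBS 2 and to between 10.1 and 41.8 TPM in the other libraries. In MCF-10A EV 1 Serpina3g, Serpina3m and Serpina3n were at their highest of all 9, and Serpina3k and Serpina1b lay nearer to PBS than in the rest of the group. The part of these cells in the values was not tested, and in bulk tissue fewer cells of a type cannot be told apart from less RNA per cell.

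**Figure D5:**
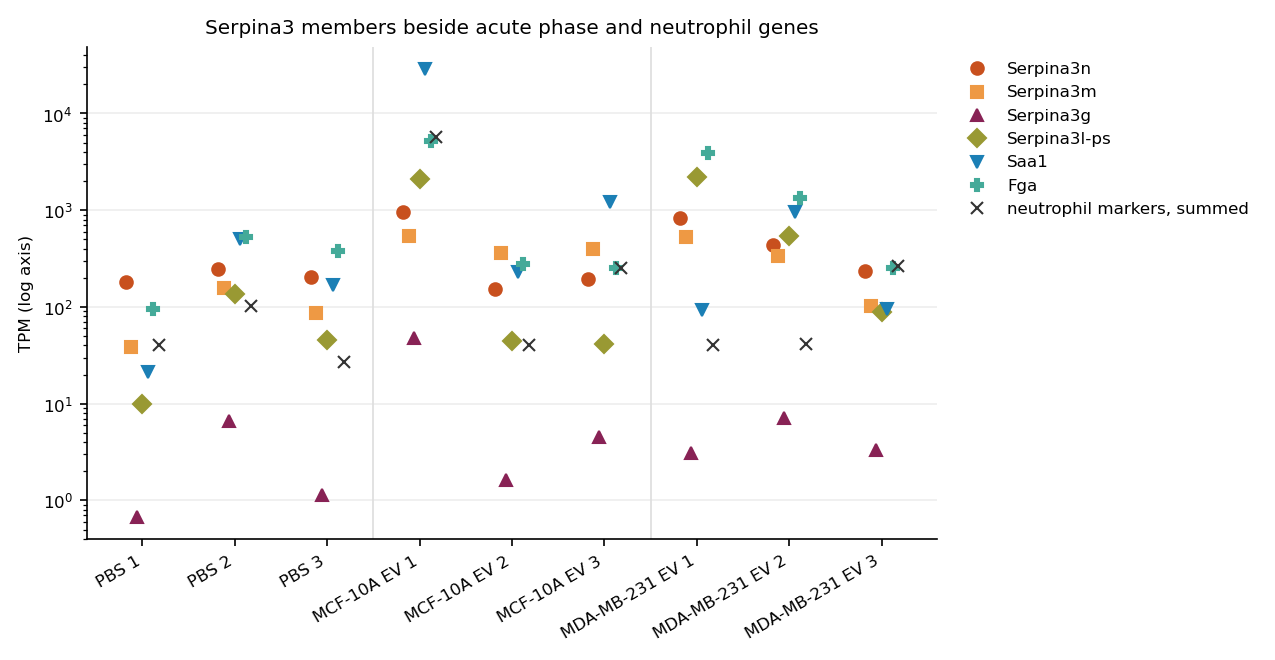
TPM on a log axis of Serpina3n, Serpina3m, Serpina3g and the pseudogene Serpina3l-ps in each library, beside the acute phase genes Saa1 and Fga and the summed neutrophil markers. MCF-10A EV 1 is highest for Saa1 (28586 TPM) and for the neutrophil markers (5736 TPM), whereas MDA-MB-231 EV 1, second in Serpina3n (839 TPM), has Saa1 at 92.2 TPM and Fga at 3889 TPM.

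The promoters were read to see what the copies share upstream. The set of RefSeq promoters (GRCm38.p6) used here had an entry for all 5 Serpina1 members and for Serpina3c, Serpina3g and Serpina3n. It held none for Serpina3k and Serpina3m. The 250 bases before each start were searched on both strands for GTTAAT, the core of sites for the hepatocyte factor HNF1, which 6.4% of 32851 promoters hold. It was present in all 5 Serpina1 promoters, in the same surrounding sequence, shown with the motif in capitals from the minus strand at chr12:103863623-103863652 for Serpina1a and chr12:103956958-103956987 for Serpina1e.
Serpina1a: gtggtgacattgGTTAATattcactagcaa
Serpina1e: gtggtgacattgGTTAATattcactagcaa
The first base of the motif lies at -21 in Serpina1a, -26 in Serpina1b, -27 in Serpina1c, -16 in Serpina1d and -78 in Serpina1e from the annotated start. Of the Serpina3 members with an entry, Serpina3c holds the motif at -239 and Serpina3g and Serpina3n do not. TTCNNNGAA, the core bound by STAT factors, is in 7.0% of promoters and among the members in that of Serpina3g, at -33. These are matches of letters, not measured binding.

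Other genes with a similar profile over the 9 libraries were ranked by Pearson's r of log2(TPM + 1) among 7193 genes that averaged 5 TPM or more. Closest to the Serpina1 sum were Sult2a5 (r = 0.98, Spearman's rho = 0.93), a sulfotransferase gene, Sar1b (0.97, 0.82), a gene of transport out of the endoplasmic reticulum, Tcn2 (0.96, 0.85), Bphl (0.93, 0.88) and Pstk (0.93, 0.80). Sult2a5 was at 14.4, 36.2 and 34.2 TPM in PBS, 42.1, 59.3 and 63.6 TPM in MCF-10A EV and 77.9, 59.9 and 18.8 TPM in MDA-MB-231 EV, low in the same libraries as the sum. Closest to Serpina3k were Prpf6 (0.96, 0.97), a splicing factor gene, Zdhhc6 (0.94, 0.65), Slc6a9 (0.93, 0.95), Ulk2 (0.93, 0.85) and Casc3 (0.93, 0.86). Prpf6 was at 22.8, 22.2 and 15.9 TPM in PBS, 10.6, 4.64 and 4.34 TPM in MCF-10A EV and 26.2, 26.2 and 37.1 TPM in MDA-MB-231 EV, with the groups in the order of Serpina3k and none overlapping. Closest to Serpina3n were Dbnl, Klhdc2, Sf3b2, Nps and Slc38a10, all at 0.98 with rho from 0.88 to 0.98; these are the best of many genes over few libraries and carry no test.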

How the data were processed

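The authors deposited TPM per gene for 9 liver libraries. Libraries came from the TruSeq RNA kit with 1 µg of total RNA, per the labels; HISAT2, StringTie, RSEM and GRCm39 stand in the submitters' processing notes without versions or order. TPM keeps no depth. The 6059 assembled loci, at 0 in every MCF-10A EV library, were left out, which leaves 55414 Ensembl features. Values were tested as log2(TPM + 1), a scale that understates differences of low genes, with limma 3.58.1 in R 4.3.3: group means over 9 libraries, trended prior variance, 2-sided tests, features with a mean of at least 1 TPM, Benjamini-Hochberg adjustment per comparison, calls at an adjusted p under 0.05. Sums got no p. The p-values measure the spread between these libraries, which may be technical. All members are named; other lists give up to 4 genes of highest mean TPM, and a few genes (Elane, Ctsg, Saa1, Fga, Mug2, Xist, pseudogenes) were named after their values were seen. Members and lists were chosen with earlier results of these data known. Deviations of same-numbered libraries from their group means correlated at 0.336, 0.110 and 0.436 between the vesicle groups, and from -0.39 to 0.50 with PBS. Differently numbered libraries reached 0.116 between the vesicle groups (MCF-10A EV 1 with MDA-MB-231 EV 2) and 0.62 with PBS (PBS 1 with MDA-MB-231 EV 3). The correlations thus do not settle whether the numbers pair libraries, and the labels state no pairing. The main test used none, and the replicate block was a further setting. Coding sequences were compared with Biopython 1.88.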

Additional observations from a re-analysis of the deposited data

How the results depend on the processing

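The 3 comparisons were refitted under 20 other settings each. For MDA-MB-231 EV against PBS 0 members were called in all of them. For MCF-10A EV against PBS 4 were called with array weights and 0 otherwise; between the vesicle groups 1 was called with array weights, and leaving out 1 library gave 0 to 1, the 1 being Serpina3k without MCF-10A EV 1. With the replicate block, fitted over all 9 libraries and so also joining PBS libraries by number, 0 members were called in each comparison. Serpina3k between the vesicle groups had an adjusted p of 0.596 in that fit (limma). Serpina3k and Serpina1e kept their direction between the vesicle groups throughout, from 1.67 to 2.74 and from -2.18 to -1.47. All calls over features ranged from 12 to 548 (MCF-10A EV against PBS) and 11 to 46 (between vesicle groups) outside the leave-outs, and from 14 to 59 and 13 to 31 within them; with the block they were 20 and 15. Leaving out PBS 1 gave 24 calls for MDA-MB-231 EV against PBS, where there were 0, and leaving out MDA-MB-231 EV 3 gave 5; leaving out both PBS 1 and MDA-MB-231 EV 3, a setting chosen after seeing the data, gave 28, and 85 (MCF-10A EV against PBS) and 36 (between the vesicle groups).

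Some members turned sign in some settings, each in a comparison where no setting called that member. The cause was not tested. In MCF-10A EV against PBS, Serpina1d was -0.025 after rescaling without mitochondrially encoded genes, -0.79 with array weights and -0.36 without both PBS 1 and MDA-MB-231 EV 3, and from -0.41 (without MCF-10A EV 1) to 0.36 when 1 library was left out, turning also without PBS 1. Serpina1a was -0.21 and Serpina3n -0.085 with array weights. Serpina3n ranged from -0.27 (without MCF-10A EV 1) to 1.06 and Serpina3c from -0.81 to 0.58 (above 0 without PBS 2, PBS 3 or MCF-10A EV 1) when 1 library was left out. In MDA-MB-231 EV against PBS, Serpina1c was -0.059 with quantile normalization and -0.19 with array weights, and from -0.16 (without PBS 1) to 0.49 over the leave-outs, turning also without MDA-MB-231 EV 2. There Serpina1a ranged from -0.0030 to 1.09 and Serpina1d from -0.034 to 1.03, both lowest without PBS 1. Between the vesicle groups, Serpina1a was 0.15 with quantile normalization, 0.39 with array weights and 0.61 without both PBS 1 and MDA-MB-231 EV 3, and from -0.37 to 0.61 over the leave-outs, above 0 without MCF-10A EV 1 or MDA-MB-231 EV 3. Serpina1d was -0.040 with quantile normalization and from -0.045 (without MDA-MB-231 EV 1) to 0.95. Serpina3g was 0.18 with array weights and from -1.65 to 0.46 (without MCF-10A EV 1). The median of all features in MDA-MB-231 EV against PBS was 0.21 as deposited, 0.099 without mitochondrially encoded genes and 0.035 with quantile normalization.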
